A study of Mus musculus with 6 samples.

Results

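Fibroblast growth factors (FGFs) and their receptors were followed across the cell types of the mouse proximal pulmonary artery (PA). The 10 genes, 6 ligands (Fgf1, Fgf2, Fgf7, Fgf9, Fgf10 and Fgf18) and 4 receptors (Fgfr1, Fgfr2, Fgfr3 and Fgfr4), were selected by symbol among the 53647 genes counted. FGFs are secreted proteins that bind receptor tyrosine kinases together with heparan sulfate, and the bound receptors signal through RAS and MAP kinases. Sprouty, Spred and dual-specificity phosphatase proteins act as feedback inhibitors of that route, and Etv transcription factors are among its targets. In the lung, Fgf7 and Fgf10 are mesenchymal ligands for the epithelial splice form of Fgfr2, Fgf9 is known from mesothelium and epithelium, and Fgf2 is a growth factor for vascular and stromal cells.

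The study asked how aging changes the proximal PA, and measured single cell RNA profiles of C57BL/6J mice. The young group held 1 male and 1 female of 3 months, and the old group held animals of 20, 24 and 27 months, described as male in the study's text, and a female of 28 months. Each of the 6 libraries came from the digested arteries of 1 animal, with no treatment or transgene. The p-values below thus measure the spread between single mice as far as their libraries are independent. A further young library described in the study is not analysed here.

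After filtering, 15321 cells remained in 32 clusters. The libraries held 2663 and 929 cells in the young male and female and 1221, 2802, 3682 and 4024 cells at 20, 24, 27 and 28 months. Median unique molecular identifiers (UMIs, 1 per counted mRNA molecule) per cell were 841 and 817 in the young and 799 at 24 months, against 2159.0, 8056.5 and 5429.5 at 20, 27 and 28 months. The young libraries and the 24-month library shared cell barcodes in numbers not seen elsewhere, with 130 to 213 barcodes per pair against 0 to 4 in every other pair. Of the 677 cells with a shared barcode, most were airway epithelial (137 of 258, 218 of 421 and 202 of 532 airway cells in these 3 libraries). The main fits keep these cells, and whether the 3 libraries are independent in this type was not tested. Cells were named from marker genes, which were raised over 2-fold in 8 of 8 cases for fibroblasts (FBs), smooth muscle cells (SMCs) and blood endothelial cells (ECs), 7 of 8 for perivascular macrophages (MΦs), 6 of 6 for mesothelial cells, 9 of 9 for airway epithelial cells and 5 of 6 for B cells. The clusters that held a class differed between libraries. Young FBs lay in cluster 11 (87 of 90 and 29 of 29 cells) and FBs of 27 and 28 months in cluster 0 (455 of 494 and 752 of 819), while most FBs of 20 and 24 months also lay in cluster 11 (124 of 128 and 205 of 218). SMCs of the young and of 20 months lay mostly in cluster 14 (21 of 24, 31 of 32 and 149 of 155), and those of 27 and 28 months mostly in clusters 1, 2 and 8. Cluster 4 held nearly all ECs of the young (84 of 86 and 61 of 63), of 20 months (661 of 667) and of 24 months (196 of 202), while clusters 7 and 20 held most ECs of 27 and 28 months. Most B cells lay in cluster 3 in the young, in cluster 5 at 24 months and in cluster 18 at 27 and 28 months. Library and age cannot be told apart in these differences. In summed counts, fewer cells of a type and less RNA per cell are separated only through the cell numbers, many of which are given below. Numbers were also low for B cells of the young female (23) and of 27 months (32), and for airway epithelial cells of 28 months (21).

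Levels are given as CPM, the gene's UMIs per 1000000 UMIs summed over the cells of 1 type in 1 library. They were compared within a gene across cell types, since genes differ in how well they are captured. Levels of old libraries are given as mean ± SD over those with at least 20 cells and 20000 UMIs of the type. The order of types covers the 10 named types with at least 2 such old libraries, so that erythroid cells and neutrophils, with 1 each, and cells with no named type stand outside it. The members and their pathway were left out of the genes used for clustering.

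Fgf1, which binds all FGF receptors, was highest in mesothelial cells. Its level there was 273 CPM in the young male and 197, 149, 241 and 141 CPM at 20, 24, 27 and 28 months (182 ± 46.4, SD, n = 4 old libraries). The young male, the only young library with 20 mesothelial cells, lay above all 4 old ones. The share of all genes in that order is not given here, so it is a description only. SMCs followed in the old libraries with 55.7 ± 26.5 CPM (n = 3), below the mesothelial range and overlapping the 44.8 ± 31.6 CPM of airway epithelial cells (n = 4).

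In SMCs Fgf1 was not detected in either young library, with 0 counts among 44129 UMIs of 24 and 32 cells. A count of 0 allows up to 3 counts, here 68 CPM, and the old libraries stood at 25.1, 72.1 and 69.9 CPM at 20, 27 and 28 months, with 12, 1575 and 431 counts. With counts pooled over the old libraries, most of them from 27 months, the old level was at least 1.04-fold above that limit. The 20-month value lay under the young limit, so the bound describes the pooled counts and does not hold for each library. Fgf1 was the only pair of member and cell type under the unadjusted threshold of 0.05 in edgeR, and its adjusted p was 0.616 (edgeR, Benjamini-Hochberg over 6794 genes). Within cluster 14, which holds most young SMCs, the old levels were 25.9, 63.9 and 65.1 CPM, all under 68 CPM. In SMCs 38.5% of old cells held an Fgf1 UMI against 0 of 56 young cells, which allows up to 6.38% (exact binomial), and after thinning every cell to 500 UMIs the old share was 3.3%. The thinned old share thus lay under the young limit. Cells were pooled over the mice of an age, so this limit does not compare the ages. In B cells, which should lack Fgf1, the shares were 0.651% young and 0.303% old. Barcodes with under 100 UMIs, taken as empty droplets, held 12.2 to 60.3 CPM of Fgf1, the highest in the young male. Intervals and limits of counts, here and below, cover counting error only and leave out the spread between mice.

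In airway epithelial cells Fgf1 stood at 18 and 17.6 CPM in the young male and female and at 9.73, 27.1, 76.3 and 66.2 CPM at 20, 24, 27 and 28 months. The groups overlapped through the 20-month library, with 3 counts in 59 cells, and the 28-month library held 21 cells. Cluster 12 held 111 of 258, 186 of 421 and 200 of 532 airway cells of the young male, young female and 24 months. At 20, 27 and 28 months it held 19 of 59, 19 of 92 and 6 of 21. At 27 months Fgf1 was 171 CPM in cluster 13 and 55.6 CPM in cluster 17. The part of this mix in the levels was not tested. The log2 fold change, old minus young, was 1.13 (SE 0.56, adjusted p = 0.771), and 1.00 (adjusted p = 0.796) without the cells with shared barcodes. Airway levels were 0.299 and 0.654 times the empty droplets in the young male and female. At 20, 24, 27 and 28 months they were 0.512, 1.43, 4.1 and 5.42 times that level. The share of cells with an Fgf1 UMI was 3.98% young and 12.4% old, and 1.03% and 0.994% after thinning to 500 UMIs.

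**Figure D1:**
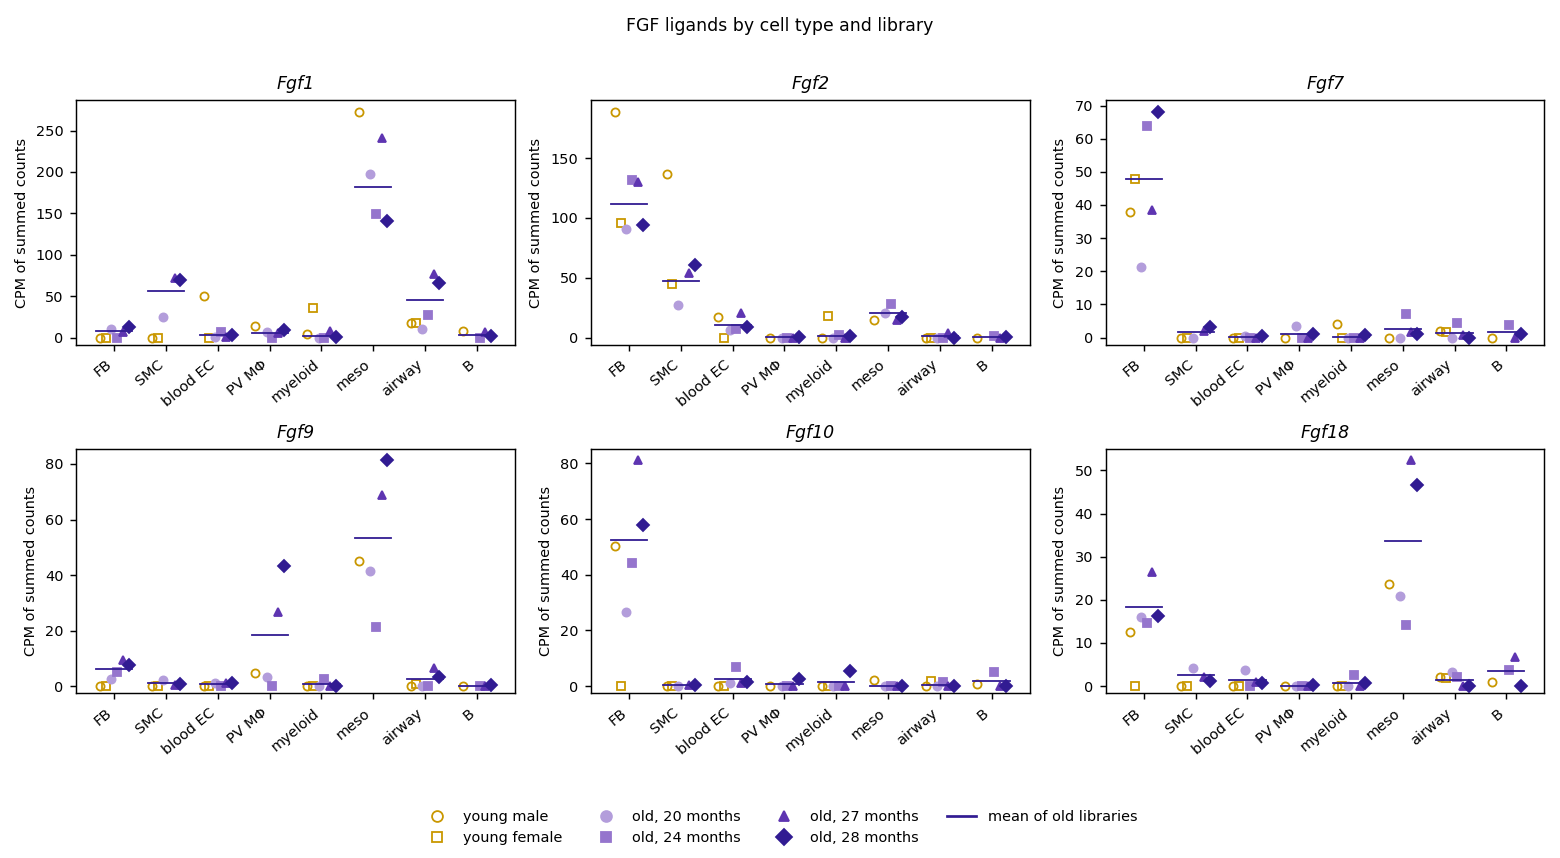
Levels of the 6 ligands, in CPM of summed counts (vertical axes), by cell type (horizontal axes, meso for mesothelial, PV MΦ for perivascular MΦs, myeloid for the other myeloid cells). Each point is 1 library, open for young and filled for old, and the line is the mean of the old libraries. Fgf2, Fgf7 and Fgf10 stand highest in FBs and Fgf1 in mesothelial cells.

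Fgf2, a heparin-binding growth factor with no signal peptide, was highest in FBs. FB levels were 189 and 95.6 CPM in the young male and female, from 15 and 2 counts, and 90.8, 132, 130 and 94.1 CPM at 20, 24, 27 and 28 months. The old values (112 ± 22.4, SD, n = 4) lay inside the young range but for the 20- and 28-month libraries just below it. The log2 fold change was -0.50 (SE 0.53, adjusted p = 0.919), and without the young male it was 0.61. SMCs held the next level, at 47.2 ± 17.7 CPM (n = 3), with no overlap with FBs among old libraries. Young SMCs held only 3 and 1 counts (137 and 44.9 CPM), and the fit gave -0.53 (SE 0.83, adjusted p = 0.888). ECs had 10.8 ± 6.67 CPM (n = 4), all under FBs, and B cells and perivascular MΦs had means of 0.571 and 0.17 CPM.

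Fgf7, keratinocyte growth factor, was highest in FBs. FBs held 37.9 and 47.8 CPM in the young male and female, from 3 and 1 counts, and 21.4, 63.8, 38.5 and 68.2 CPM at 20, 24, 27 and 28 months. The old libraries fell on both sides of the young (48 ± 22, SD, n = 4), and among the ordered types mesothelial cells came next at 2.43 ± 3.18 CPM with no overlap. The log2 fold change was 0.22 (SE 0.81, adjusted p = 0.999). With 4 young counts in all, the ratio of summed counts was 1.41 with an interval from 0.547 to 5.19.

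Fgf10, a ligand of lung mesenchyme, also lay in FBs. The young male held 50.5 CPM from 4 counts, the young female 0 counts among 29 cells, and the old libraries held 26.7, 44.2, 81.2 and 58 CPM at 20, 24, 27 and 28 months (52.5 ± 23, SD, n = 4). Among the ordered types ECs came next with a mean of 2.65 CPM in old libraries, below the FB range. Outside that order, neutrophils at 28 months held 7.31 CPM from 2 counts, and the 24 cells with no named type at 24 months held 42.9 CPM from 1 count. Empty droplets held 52.4, 29.4, 19.3, 16, 2.89 and 0.87 CPM of Fgf10 in the order young male, young female, 20, 24, 27 and 28 months. The FB level was thus 0.964 and 0 times the empty-droplet level in the young male and female. At 20, 24, 27 and 28 months it was 1.38, 2.76, 28.1 and 66.7 times that level. The last 2 ratios rest on 11 and 1 counts of Fgf10 in the empty droplets. Fgf10 did not pass the gene filter in FBs and was not tested, and the ratio of summed counts was 1.6 with an interval from 0.623 to 5.9.

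Shares of FBs with a UMI were 12.6% young and 30.3% old for Fgf2, 3.36% and 18.1% for Fgf7, and 2.52% and 14% for Fgf10. Thinned to 500 UMIs per cell they were 8.4% and 3.68%, 1.68% and 2.95%, and 0.84% and 3.86%. The order of young and old in Fgf2 turned with depth, and median UMIs per FB were 857 and 663 in the young and 2812.0, 846, 5698.5 and 6375.0 at 20, 24, 27 and 28 months. In B cells, which should lack these ligands, the shares were 0% and 0.152% for Fgf2, 0% and 0.379% for Fgf7, and 0.0814% and 0.303% for Fgf10, at median UMIs of 621 to 783 in the young and 697 to 7285.5 in the old.

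Fgf9, a ligand known from mesothelium, was highest in mesothelial cells. Its level was 45.1 CPM in the young male, from 21 counts, and 41.5, 21.3, 68.8 and 81.4 CPM at 20, 24, 27 and 28 months (53.3 ± 27, SD, n = 4). The young male lay in the middle of the old range. Perivascular MΦs came next with 18.3 ± 20.3 CPM, which overlapped both the mesothelial cells and the 6.15 ± 2.95 CPM of FBs.

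In perivascular MΦs the young male held 1 count of Fgf9 among 223 cells (4.7 CPM), and the young female's 8 such cells held none. The old libraries held 3.4, 0, 26.6 and 43.1 CPM at 20, 24, 27 and 28 months, from 1, 0, 39 and 127 counts. The 27- and 28-month libraries stood apart from the rest, and the young male lay between the 20- and 27-month values. The ratio of summed counts was 7.46 with an interval from 1.32 to 296, and no test was fitted with 1 young library. Thinned to 500 UMIs, the shares of MΦs with an Fgf9 UMI were 0.448% in the young male and 0, 0, 1.28 and 1.57% at 20, 24, 27 and 28 months. Empty droplets of the young male held 22.1 CPM of Fgf9, above its MΦs. These MΦs lay in different subclusters by library, with 215 of 223 young male cells in subcluster 2, 113 of 116 at 20 months in subcluster 6, 159 of 234 at 27 months in subcluster 4 and 264 of 447 at 28 months in subcluster 0.

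Fgf18, another mesenchymal ligand, was found in mesothelial cells and FBs. Mesothelial levels were 23.6 CPM in the young male and 20.8, 14.2, 52.4 and 46.7 CPM at 20, 24, 27 and 28 months, and the old mean was 33.5 ± 18.9 CPM (SD, n = 4). FBs held 18.4 ± 5.45 CPM, which overlapped the mesothelial range but no other type. Young FBs held 1 count in all, and the ratio of summed counts was 1.96 with an interval from 0.347 to 77.9.

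Fgfr1, the receptor most used by mesenchymal cells, was highest in FBs. FB levels were 366 and 430 CPM in the young male and female, from 29 and 9 counts, and 374, 314, 395 and 442 CPM at 20, 24, 27 and 28 months (381 ± 53.2, SD, n = 4). Young and old ranges overlapped almost fully, and the log2 fold change was 0.01 (SE 0.44, adjusted p = 0.999). In the 20-month library the empty droplets held 316 CPM, and the FB level was only 1.18 times that, against 4.62 to 15.2 times in the other 5 libraries. In old libraries perivascular MΦs followed at 239 ± 129 CPM, SMCs at 130 ± 38.5 CPM and other myeloid cells at 124 ± 82.3 CPM, each overlapping its neighbour, and B cells were lowest at 7.3 ± 5.54 CPM. The share of FBs with an Fgfr1 UMI was 29.4% young and 69.6% old, and 13.4% (exact binomial interval 7.88 to 20.9) and 16.3% (14.5 to 18.1) after thinning. These shares pool the cells of all mice of an age. The intervals leave out the spread between mice and do not compare the ages.

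In perivascular MΦs Fgfr1 was 65.7 CPM in the young male, from 14 counts, and 95.2, 165, 338 and 356 CPM at 20, 24, 27 and 28 months. All 4 old libraries lay above the young male, and the ratio of summed counts was 5.05 with an interval from 3 to 9.26. The share of all genes in that order is not given here, so the order is a description only. These MΦs lay in different subclusters by library, as given for Fgf9. The young female's 8 cells held 1 count, or 169 CPM, inside the old range. The young male level was 1.08 times its empty droplets, and the old levels were 0.301, 7.97, 6.26 and 3.72 times theirs at 20, 24, 27 and 28 months. Thinned shares of cells with an Fgfr1 UMI were 3.59% in the young male and 6.9, 3.45, 12.8 and 15.9% in the old, so that the 24-month share fell below the young. Over all myeloid cells, where both young libraries could be fitted, the levels were 125 and 321 CPM young and 84.8, 195, 314 and 276 CPM old, which overlapped (log2 fold change -0.14, SE 0.58, adjusted p = 0.987). In the young female 59 of these cells were other myeloid cells, at 337 CPM, and 8 were perivascular MΦs. The mix of myeloid cells differed between libraries, so this fit does not compare perivascular MΦs between the ages.

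In SMCs Fgfr1 levels were 91.4 and 225 CPM young, from 2 and 5 counts, and 85.6, 157 and 147 CPM at 20, 27 and 28 months (log2 fold change 0.08, SE 0.69, adjusted p = 0.995). In ECs they were 50.4 and 0 CPM young, from 3 and 0 counts, and 63.7, 49, 110 and 98.9 CPM old. The 24-month value lay just under the young male. EC levels were 0.827 and 0 times the empty droplets in the young male and female. At 20, 24, 27 and 28 months they were 0.202, 2.37, 2.04 and 1.03 times that level. SMC levels were 1.5 and 3.34 times it in the young, and 0.271, 2.9 and 1.53 times at 20, 27 and 28 months. The fitted EC change was 1.60 (SE 0.81, adjusted p = 0.874), and the ratio of summed counts was 3.11 with an interval from 1.06 to 15.2. Without the young female the change was 0.64, and without the young male no young count remained.

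**Figure D2:**
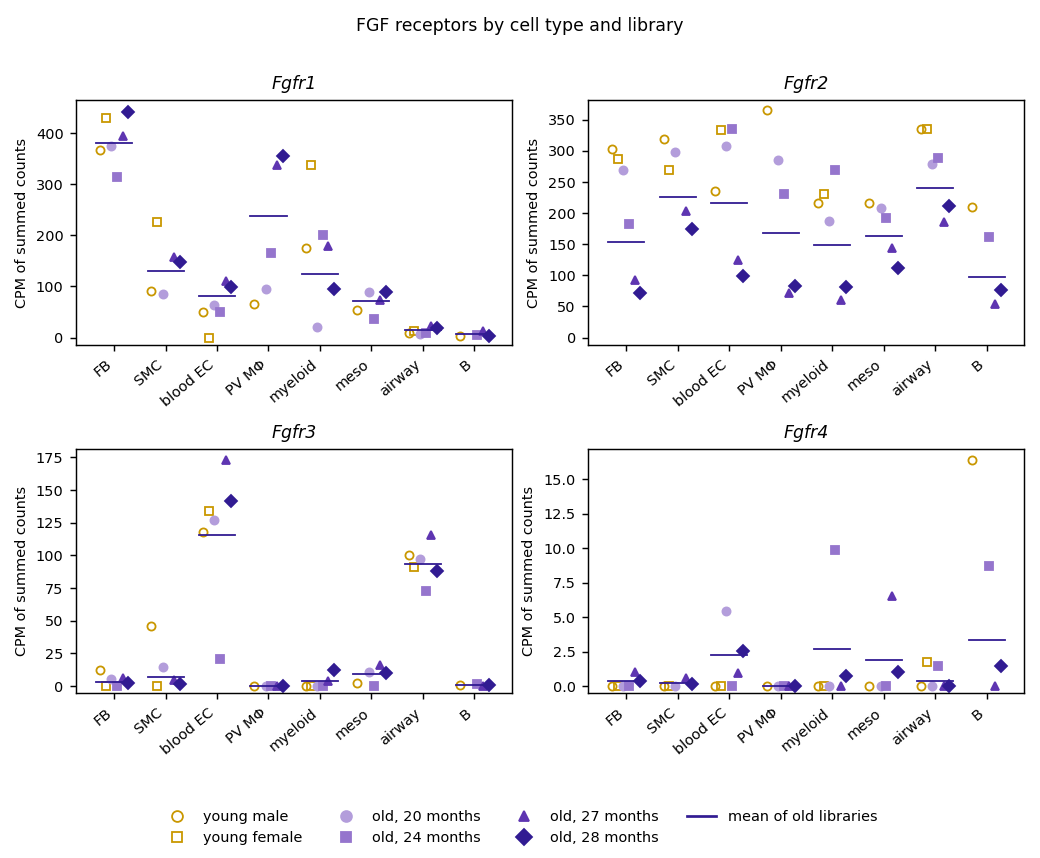
Levels of the 4 receptors, in CPM of summed counts (vertical axes), by cell type (horizontal axes, abbreviated as in the plot of the ligands). Each point is 1 library, open for young and filled for old, and the line is the mean of the old libraries. Fgfr1 stands highest in FBs and Fgfr3 in ECs and airway epithelial cells.

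Fgfr2, whose splice forms serve epithelial and mesenchymal cells and cannot be separated in counts per gene, was found in every cell type. Among the ordered types old means ran from 90.1 CPM in lymphatic ECs to 241 ± 50.6 CPM in airway epithelial cells, and every type overlapped its neighbour. The lymphatic mean rests on the 27- and 28-month libraries alone (94.9 and 85.2 CPM), so the order compares unlike sets of libraries. In those libraries FBs, perivascular MΦs and B cells lay below lymphatic ECs, and SMCs, ECs and airway epithelial cells above. Outside that order erythroid cells and neutrophils at 28 months held 50.2 and 69.5 CPM, and cells with no named type at 24 months held 687 CPM. B cells held 210, 69.1, 161, 54.5 and 76.2 CPM in the young male, young female and at 24, 27 and 28 months. The young female value came from only 23 cells.

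Fgfr2 was also found outside cells. Empty droplets held 1337.9 CPM in the young male, 651 in the young female, 417 and 419 at 20 and 24 months, and 54.3 and 68.7 at 27 and 28 months. In the first 4 libraries FBs, SMCs, ECs, perivascular MΦs, airway epithelial cells and B cells all lay below their empty droplets wherever a library held at least 20 cells of the type, while at 27 and 28 months SMCs stood at 3.75 and 2.54 times and airway epithelial cells at 3.42 and 3.07 times that level. FBs at 27 and 28 months stood at 1.72 and 1.05 times and B cells at 1 and 1.11 times, so that FBs at 28 months were close to B cells. A cluster of 354 cells with no named type, led by the predicted genes Gm10801 and Gm10800, held 1231.0 and 1296.9 CPM of Fgfr2 in the young male and female. Gm10801 in empty droplets ran from 111408.5 CPM in the young male, 31236.4 in the young female, 11318.6 at 20 months and 29106.7 at 24 months to 78.2 and 117 at 27 and 28 months. Its part in the Fgfr2 levels was not tested.

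**Figure D3:**
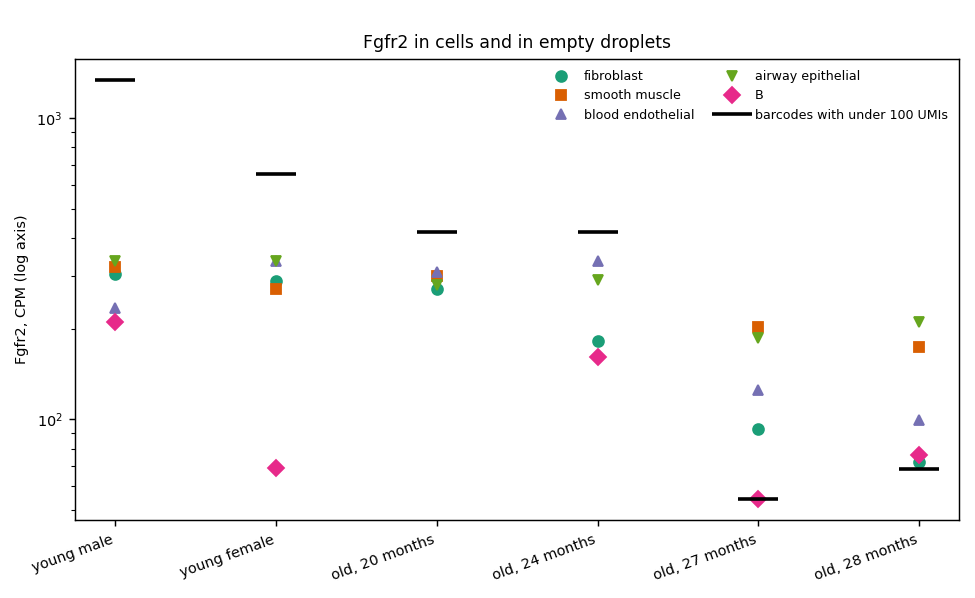
Fgfr2 in CPM (vertical axis, logarithmic) in each library (horizontal axis) for 5 cell types, with a bar for barcodes with under 100 UMIs. In both young libraries and at 20 and 24 months the bar, at 417 to 1337.9 CPM, lies above every cell type drawn, and at 27 and 28 months the cell types lie on or above it.

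Across ages, Fgfr2 in FBs was 303 and 287 CPM in the young and 270, 182, 93.2 and 72.4 CPM at 20, 24, 27 and 28 months. The young values rest on few counts, with 23 in the male and 6 in the female within cluster 11, where most young FBs lay. All old libraries lay below both young ones, and the log2 fold change was -0.88 (SE 0.61, adjusted p = 0.83). It was -0.15 without the 27- and 28-month libraries and ran from -1.31 to -0.48 with 1 library left out. Airway epithelial cells, at 335 and 335 CPM young and 279, 289, 186 and 211 CPM old, also did not overlap (log2 fold change -0.58, SE 0.41, adjusted p = 0.801, and -0.67 without the cells with shared barcodes). Without the 27- and 28-month libraries the airway change was -0.09. In the other 4 types tested the groups overlapped, with log2 fold changes of 0.05 in SMCs, -0.29 in ECs, -0.67 in myeloid cells and -0.79 in B cells, and adjusted p from 0.849 to 0.999. The share of all genes whose groups did not overlap is not given here. The separation in FBs and airway epithelial cells is therefore a description only. Fgfr2 in empty droplets was likewise highest in the young libraries and lowest at 27 and 28 months, and its part in these differences was not tested.

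Fgfr3 had its highest old mean in ECs, with airway epithelial cells next and the ranges of old libraries overlapping. EC levels were 118 and 134 CPM in the young male and female, from 7 and 6 counts, and 127, 21, 173 and 142 CPM at 20, 24, 27 and 28 months (116 ± 66.1, SD, n = 4). The 24-month library was low, with 3 counts in 202 cells, and the other 5 lay between 118 and 173 CPM. The log2 fold change was -0.00 (SE 0.68, adjusted p = 1). It was 0.27 without the 24-month library and -2.44 with a covariate for the libraries that share barcodes (adjusted p = 0.994). Within ECs, cluster 20, led by the capillary gene Gpihbp1, held 0 and 40 CPM at 27 and 28 months, while clusters 4 and 7, led by Vwf and Cytl1, held 160 to 213 CPM in the same libraries. Empty droplets held 7.51 to 35.3 CPM. The share of ECs with an Fgfr3 UMI was 7.38% young and 26.2% old, and 4.7% and 6.39% after thinning.

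Airway epithelial cells held Fgfr3 at 100 and 90.9 CPM young and 97.3, 72.4, 116 and 88.2 CPM old (93.5 ± 18.2, SD, n = 4). The groups overlapped, with a log2 fold change of -0.19 (SE 0.33, adjusted p = 0.924) and of -0.39 without the cells with shared barcodes. Lymphatic ECs followed at 23.9 ± 11 CPM (n = 2 old libraries), below the airway range, and perivascular MΦs held 1 count in all old libraries.

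Fgfr4, a receptor known from liver and developing muscle, was at the edge of detection, with 86 UMIs in all cells. Its highest old mean, 9.88 ± 17.1 CPM in T and NK cells, came from 5 counts in 1 library. Perivascular MΦs held 0 counts in 855 old cells, which allows a share of up to 0.431%.

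Old and young libraries were compared in the 6 cell types with at least 2 libraries of 10 or more cells in each age, FBs, SMCs, ECs, myeloid cells, airway epithelial cells and B cells, with edgeR on summed counts. Of the 10 genes, 6 passed the gene filter in at least 1 type, giving 17 pairs, and Fgf9, Fgf10, Fgf18 and Fgfr4 passed in none. By edgeR, 0 of the 17 pairs passed an adjusted p of 0.05 and 1 an unadjusted p of 0.05, and DESeq2 gave 0 and 0. Over all genes, 0.0447% passed the adjusted threshold in FBs and 0% in SMCs, ECs, myeloid cells, airway epithelial cells and B cells. At the unadjusted threshold the shares were 6.21% in FBs, 7.98% in SMCs, 5.85% in ECs, 5.53% in myeloid cells, 6.07% in airway epithelial cells and 6.62% in B cells. In SMCs the median log2 fold change of all genes was 0.52 with TMM scaling and 0.14 without it, and 89.1% and 52.3% of the genes under an unadjusted p of 0.05 were higher in old, so that SMC changes are relative to that shift.

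**Figure D4:**
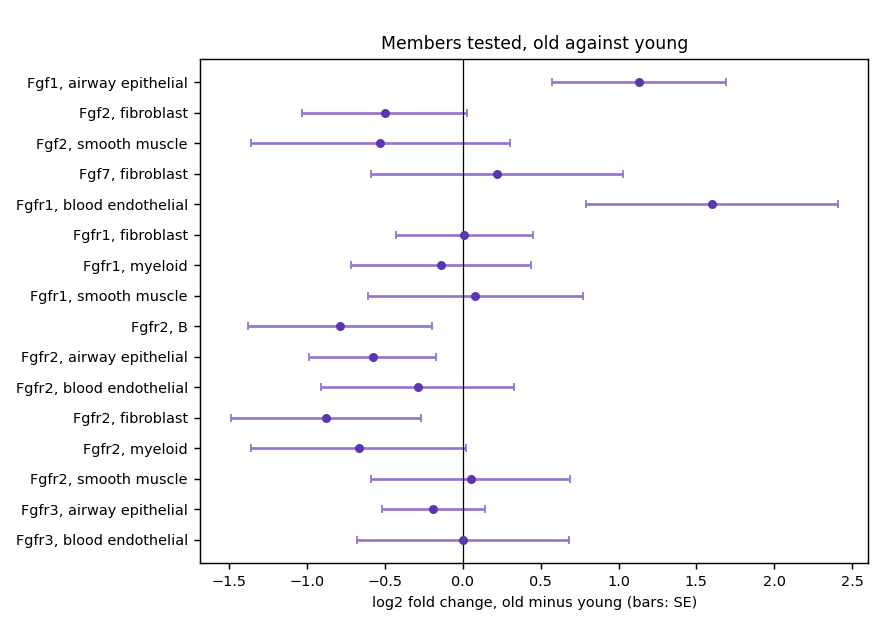
Log2 fold change, old minus young (horizontal axis), of the 16 pairs of member and cell type whose young libraries held counts, with bars for the SE from edgeR. Fgf1 in SMCs, with 0 young counts, is left out. None of the pairs drawn passed an adjusted p of 0.05.

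A list of 107 genes of the pathway, members included, gave the context, and 294 pairs of gene and type were tested. By edgeR 0 passed an adjusted p of 0.05, 11 were higher and 6 lower at an unadjusted p under 0.05, and DESeq2 called 1 adjusted and 14 unadjusted. The share of all genes that DESeq2 called is not given here, so its counts have no background beside them. The median log2 fold change of the list was 0.21 in FBs, -0.02 in ECs, 0.13 in myeloid cells, -0.20 in airway epithelial cells and 0.31 in B cells, against 0.18, 0.20, 0.07, 0.02 and 0.09 over all genes tested. In SMCs it was 0.39 against 0.52, or 0.23 with the 5 genes that had no young counts set to their lower bound. Most genes named below were picked by the smallest p in these same tests. Where their groups did not overlap, the share over all genes is not given, so such orders are descriptions only.

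Among heparan sulfate proteins and enzymes, which shape ligand binding, Sdc3, a syndecan, stood at 849 and 514 CPM in young myeloid cells and at 175, 257, 228 and 306 CPM at 20, 24, 27 and 28 months. All old libraries lay below both young ones (log2 fold change -1.62, SE 0.41, adjusted p = 0.812). Hs2st1, a sulfotransferase, stood in myeloid cells at 15.1 and 0 CPM young and 38, 30, 60.5 and 67.5 CPM old (1.91, SE 0.65, adjusted p = 0.812). Sulf2, a heparan sulfate endosulfatase, overlapped in myeloid cells (1.47, SE 0.76, adjusted p = 0.812).

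Sulf1, the related endosulfatase, was 91.4 and 89.9 CPM in young SMCs, from 2 and 2 counts, and 121, 400 and 461 CPM at 20, 27 and 28 months. The change was 2.20 (SE 0.82, adjusted p = 0.616), and without the 20-month library it passed the threshold (adjusted p = 2.2e-04). SMC calls over all genes also rose in that fit, as given in the closing section. It left old SMCs with median UMIs of 9358.5 and 6635.0 at 27 and 28 months. Young SMCs had 788 and 647 in the male and female. Col18a1, a basement membrane proteoglycan, was 218 and 89.1 CPM in young ECs and 86.2, 70.1, 32 and 36.9 CPM in old (-1.41, SE 0.64, adjusted p = 0.837). Ext2, an enzyme of heparan sulfate chain growth, had 1 young count in FBs, and its ratio was 8.73 with an interval from 1.56 to 345. Its libraries overlapped, with 47.8 CPM in the young female and 34.3 CPM at 24 months, and the adjusted p was 0.737. The log2 fold change was 2.71, or 0.94 without the young male, and leaving out the young female left no young count. In airway epithelial cells Agrn and Gpc5, both proteoglycans, gave -0.71 and -0.85 (SE 0.36 and 0.44, adjusted p = 0.771 for both).

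Of the adaptors and kinases, Map2k1 and Map2k2, the kinases upstream of ERK, had no young SMC counts, and their old levels were 39.7, 58.5 and 55 CPM and 79.3, 97 and 87.1 CPM at 20, 27 and 28 months. Against the young limit of 68 CPM the old Map2k2 level, from pooled counts, was at least 1.39-fold higher, and Map2k1 lay under the limit. Ptpn11, the phosphatase SHP2, had 1 young count in FBs (ratio 8.02, interval 1.43 to 317, adjusted p = 0.759). Such intervals of summed counts leave out the spread between mice. In B cells Sos1, an exchange factor for RAS, gave a log2 fold change of 1.22 (SE 0.61, adjusted p = 0.751). Fgf14, an intracellular FGF homologous factor that binds no receptor, had 2 young counts in ECs and 69.2, 56, 86.7 and 255 CPM in old (ratio 8.56, interval 2.36 to 70.8, adjusted p = 0.815).

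Feedback inhibitors were led by Dusp6, a phosphatase that removes phosphate from ERK. In ECs it stood at 269 and 334 CPM in the young male and female, from 16 and 15 counts, and at 53.4, 105, 65 and 60.9 CPM at 20, 24, 27 and 28 months. All 4 old libraries lay below both young ones, and the log2 fold change was -2.08 (SE 0.46). The adjusted p was 0.815 by edgeR and 0.0441 by DESeq2, the only call of either tool in the list with all libraries in. That DESeq2 call likewise has no share over all genes beside it. In airway epithelial cells Dusp6 was 134 and 73.2 CPM young and 61.6, 71, 36 and 34.7 CPM old (-1.09, SE 0.47, adjusted p = 0.771). FBs held 3 young counts of it and SMCs none.

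Spred2, which restrains RAF activation, was 215 and 191 CPM in young FBs, from 17 and 4 counts, and 53.4, 68.7, 58.8 and 74.6 CPM in old. The groups did not overlap (-1.69, SE 0.47, adjusted p = 0.726). Spry2 in FBs was 227 and 334 CPM young and 112, 358, 62.6 and 55 CPM old, where the 24-month library stood with the young (-0.80, SE 0.95, adjusted p = 0.943). Spry1 in old FBs ran from 37.5 to 49.1 CPM with 3 young counts, and Spry4 in old SMCs from 18 to 20.5 CPM with 1. Of the feedback inhibitors tested, 4 of 6 in FBs, 4 of 6 in SMCs, 2 of 6 in ECs, 2 of 5 in myeloid cells, 0 of 8 in airway epithelial cells and 1 of 2 in B cells had a fold change above 0, with medians of 0.38, 0.10, -0.87, -0.06, -0.42 and -0.06. Over all genes tested, 59.4%, 69.9%, 61.4%, 54.1%, 51.7% and 55.2% had a fold change above 0 in the same order of types. With the gene that had no young counts at its lower bound, the SMC median was 0.04.

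**Figure D5:**
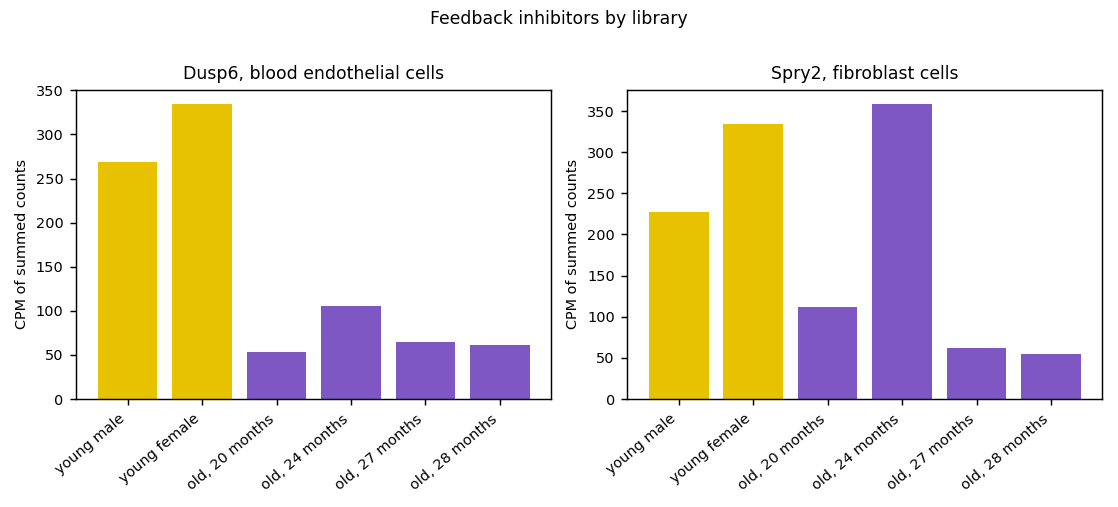
Dusp6 in blood ECs and Spry2 in FBs, in CPM of summed counts (vertical axes, from 0), with 1 bar per library. Dusp6 is 269 and 334 CPM in the young and 53.4 to 105 CPM in the old, and Spry2 at 24 months (358 CPM) stands with the young libraries.

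Among the targets, Etv5 in perivascular MΦs was 51.6 CPM in the young male, from 11 counts, and 23.8, 33, 68.1 and 28.5 CPM at 20, 24, 27 and 28 months, which overlapped. Over all myeloid cells its change was 0.40 (SE 0.75, adjusted p = 0.931). Egr1, an immediate early gene, was 40 and 69.1 CPM in young B cells and 172, 272 and 114 CPM at 24, 27 and 28 months (2.02, SE 0.67, adjusted p = 0.563). The young female value was 1 count in 23 cells, and at 27 months 9.38% of 32 cells held a UMI. In FBs, SMCs, ECs, myeloid and airway epithelial cells the groups overlapped, with the 28-month library lowest at 177 to 553 CPM. Fgfrl1, a receptor without a kinase domain, was 91.4 and 135 CPM in young SMCs, from 2 and 3 counts, and 68.9, 45.6 and 47.5 CPM in old (-0.69, SE 0.78, adjusted p = 0.814). Etv4 stood at 4.18 CPM or less in every named type and library with at least 20 cells.

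The study lists Fgf9 with Fgfr1 among the signals from perivascular MΦs to FBs and SMCs that rose with age, and also among those from ECs to SMCs. It multiplied imputed ligand and receptor levels in pairs of single cells and compared the ages by a Wilcoxon test. The product below uses unimputed counts with 1 value per library, so it is an unlike measure. It covers MΦs to FBs only, and no product was formed with SMCs as receivers or ECs as senders. Pooled over mice, 0 of 149 young and 6 of 1971 old ECs held an Fgf9 UMI, without thinning to equal depth. The product of the mean log levels per cell, Fgf9 in MΦs times Fgfr1 in FBs, was 0.0059 in the young male and 0.0126, 0, 0.185 and 0.255 at 20, 24, 27 and 28 months. The young value lay between those of 24 and 20 months, and the 27- and 28-month libraries were high. The means differed by 0.107, with p = 0.8 in a two-sided exact permutation test of 1 against 4 libraries, whose smallest possible p is 0.2. The Fgfr1 term ran from 0.616 to 1.34 and the Fgf9 term from 0 to 0.189, so that the product followed Fgf9. Thinned to 500 UMIs, the difference was 0.00617, and the young male (0.00554) lay above the 20- and 24-month libraries (0 and 0). From CPM the young male product (1718.7) likewise lay above that of 20 months (1271.8), so that the order of these libraries depended on the scale.

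The genes with the most similar pattern were sought over 51 profiles of a library and a cell type, by Pearson correlation of log2(CPM + 1). The profiles share libraries, depth and free RNA, so the values are descriptions. Fgf2 was most like the long noncoding RNA Meg3 (r = 0.908), Col6a3 and Arhgef25, Fgf7 most like Svep1 (r = 0.904), Lgi2 and the chemokine Ccl11, and Fgf10 most like Asphd2 (r = 0.846), Myoc and Dio2. Fgf18 was most like Xpnpep2 (r = 0.891), Gm38407 and Cpz. The remaining ligands had weaker partners, which were Ano1 (r = 0.782), Ephb6 and Gm21814 for Fgf1 and Tlr5 (r = 0.747), Gjb5 and Rpp25 for Fgf9. Fgfr1 was most like Cd302 (r = 0.892), Camk1 and Lrp1, and Fgfr3 most like Eva1a (r = 0.860), the hypoxia-inducible factor gene Epas1, and Shroom4. Fgfr2 was most like Dlgap1 (r = 0.80), the predicted gene Gm10736, and Uqcr11. Fgfr4 had too few UMIs.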

How the data were processed

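Proximal PAs of 6 mice were profiled by droplet single cell RNA-seq. The authors deposited raw UMI counts per gene and barcode (unfiltered matrices), and the submitters' processing notes name cutadapt, STAR, STARsolo and GRCm38.p6, with versions not given in the sources used here. Barcodes were kept from 500 UMIs and 300 genes upwards, if no more than 20% of their UMIs were mitochondrial, 301 of 15622 were removed as doublets, and 15321 cells were clustered with scanpy 1.11.5 and leidenalg 0.10.2 (2000 variable genes, 40 components, 15 neighbours, resolution 1.0) without the FGF pathway genes. Clusters were named from marker lists where at least 40% of markers were raised, and perivascular MΦs where at least 60% of theirs were, limits set after the clusters were seen. The members and lists were chosen with earlier results of these data known. Total UMIs per library ran from 6355125 to 50436562, so old libraries of 27 and 28 months give the most precise levels.

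Counts were summed per library and type and tested, old against young, by edgeR 4.0.16 (R 4.3.3, quasi-likelihood, TMM, Benjamini-Hochberg over all genes tested, threshold 0.05), with DESeq2 1.42.0 as an alternative. Single values were compared by exact permutation (scipy 1.17.1). The fits were tested on simulated data. Intervals of shares and ratios are exact at 95% for cells or counts pooled over the mice of an age, and a count of 0 was given a limit of 3 counts. Alternatives covered filters, scaling, doublets, shared barcodes, thinning and leaving out each library. All 10 members are named. Of the 107 pathway genes, those past an adjusted p of 0.05 and then the 3 with the smallest unadjusted p per type are named, with Fgfrl1, Spry1, Spry2, Spry4, Dusp6, Etv4 and Etv5 always, except that a result this rule would name is not reported here. The 3 genes most like each member with at least 100 UMIs are given.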

Additional observations from a re-analysis of the deposited data

Results flagged for a closer look

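Fgf18 in FBs stood at 26.5 CPM in the 27-month library, against 14.7, 16 and 16.2 CPM in the other old libraries. The 14.7 and 16 CPM, of 24 and 20 months, rest on 3 and 6 counts. The gap to its nearest neighbour was 0.87 of the group's range, above Dixon's 95% critical value for 4 samples. Of 20 groups of 4 libraries tested this was the 1 that stood out, and chance gives about 1 in 20.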

How the results depend on the processing

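Across 17 alternatives the number of members past the adjusted threshold stayed at 0. The pathway list, with 0 calls by edgeR, had 1 by DESeq2 (Dusp6 in ECs), 2 without the 27- and 28-month libraries, and 0 to 2 when each library was left out, the 2 being Sulf1 and Ext1 in SMCs without the 20-month library. The causes were not tested. Over all genes, SMC calls went from 0 to 176 without the 20-month library, and fits with no gene filter gave 10 to 166 calls per type. Totals over all genes by DESeq2 and without the 27- and 28-month libraries are not given here. The list calls in those settings thus have no background beside them.

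Of the members' log2 fold changes, 215 values kept their direction and 34, all far from the threshold, did not. Those with the same direction included Fgfr3 in ECs at -2.44 and Fgf7 in FBs at 0.82, both with a covariate for the libraries that share barcodes. Fgfr1 in FBs was -0.01 without shared barcodes, -0.04 without TMM and -0.10 with that covariate. In SMCs Fgf2 was 0.18 with no gene filter, Fgfr2 was -0.39 without TMM and -0.06 by DESeq2, and Fgfr1 was -0.28 without TMM, -0.05 by DESeq2 and -0.32 without the 27- and 28-month libraries. In ECs Fgfr3 was 0.08 with filterByExpr, 0.44 with no filter and 0.36 after thinning, and Fgfr2 was 0.06 with no filter, 0.38 with the covariate and 0.39 without the 27- and 28-month libraries. In myeloid cells Fgfr2 was 0.05 with the covariate and 0.15 without the 27- and 28-month libraries, and Fgfr1 was 0.33 with no filter, 0.04 without TMM and 0.59 after thinning.

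With each library left out, a lone young library being assumed to vary like the others, the values ran from -0.84 to 0.61 for Fgf2 and -0.02 to 0.21 for Fgfr1 in FBs, from -1.06 to 0.46 for Fgf2, -0.29 to 0.28 for Fgfr2 and -0.44 to 0.95 for Fgfr1 in SMCs, from -0.16 to 0.27 for Fgfr3 and -0.61 to 0.04 for Fgfr2 in ECs, from -0.73 to 0.68 for Fgfr1 in myeloid cells and from -1.34 to 0.91 for Fgfr2 in B cells. Thinning moved the old FB level of Fgf2 to 68 CPM and of Fgfr1 to 310 CPM, and moved 9 of 10 shares. The covariate could not be fitted in SMCs, and a minimum of 1000 UMIs left SMCs and ECs without a fit. No paired analysis was possible because the labels give no replicate numbers shared between young and old mice. Young counts limit the depth, with 44129 UMIs in all young SMCs.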
